A study of Rattus norvegicus with 4 samples.

Results

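Cdkn1b, Cdc25b and Rfc1 are 3 genes of cell division that the rat liver arrays carried, on 6 of their 7688 spots. A spot was taken when the symbol listed for it was one of these names, and no spot of a clone with several symbols was among them. The 3 genes were put together because of the ratios they showed in these livers, so their own ratios are given as a description, without a test. After averaging by gene, they were 3 of 2644 genes with a ratio on all 4 arrays.

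The study profiled total liver RNA on 4 dual-colour cDNA arrays, on which differently labelled RNA samples compete for spotted clones. On each array RNA from a female Fischer rat that had received ciprofibrate at 50 mg per kg of body weight per day for 60 days was set against a pool of RNA from 5 control rats. The drug belongs to the fibrates, which lower blood lipids through the nuclear receptor PPARα and make rodent livers enlarge and fill with peroxisomes. The title of the series asks which gene expression the drug stimulates, and the labels describe the control rats no further. The control pool was shared by all arrays, so the spread between control rats was not measured. The labels do not number the treated rats, and the arrays were treated as separate animals.

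A value below is the log2 of the deposited ratio after each array was centred on its median, so 0 is the typical clone and 1 is a doubling. The labels give treated liver as the channel named before control liver, and no dyes, so whether dyes were swapped is not known. A dye effect or a deviation of the shared pool could enter all arrays alike and cannot be told apart from the treatment. Of 35 textbook genes that peroxisome proliferators induce in rodent liver, 15 were measured, 11 with a mean above 0 and 4 below it. Of these, 5 passed as positive and 1 as negative by limma's moderated test of the mean against 0, with Benjamini-Hochberg adjustment over 2644 genes at 0.05. Genes that passed are termed calls below, and they made up 17.1% (positive) and 16.6% (negative) of the genes tested. A positive value therefore likely means more RNA in the treated livers than in the pool, a reading the labels do not settle. The arrays held 6499 to 6517 measured spots and correlated pairwise between 0.46 and 0.76 over spots, with replicate 2 lowest against the others (0.46 to 0.53). Values also went with the inferred place on the slide: the left blocks of spots exceeded the right ones by 0.20, 0.12, 0.36 and 0.53 (log2, medians) on replicates 1 to 4. Each ratio of the 3 genes is therefore given as it stood and with the local level of the slide removed. With a smooth surface over the positions subtracted, the 15 genes behind the likely direction held 3 positive calls and 1 negative. Their median went from 0.24 to 0.09, and over all genes 4.2% were then positive and 13.5% negative calls. Of 21 hepatocyte markers 13 were measured, with a median of -0.22, 3 positive and 2 negative calls. Of 21 Kupffer cell and leukocyte markers 4 were measured, with 1 positive and 2 negative calls and means between -1.23 and 0.31 (median -0.09). Of 20 stellate, bile duct and endothelial markers 9 were measured, with 4 positive and 2 negative calls and means between -0.85 and 0.62 (median 0.19). With the same surface subtracted these 3 marker lists held 0 positive calls each, and 1, 2 and 1 negative calls in the order given. Ratios carry no expression level, so a marker could not be called present or absent, and in whole liver fewer cells of a type cannot be told apart from less RNA per cell. The part of cell composition in the ratios was not tested.

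Cell division is driven by cyclin-dependent kinases (CDKs), which need a cyclin partner, are held back by inhibitor proteins and by inhibitory phosphates, and are switched on when CDC25 phosphatases take those phosphates off. Cdkn1b encodes the inhibitor p27, which binds cyclin-CDK complexes and keeps cells such as resting hepatocytes out of DNA synthesis. Cdc25b encodes a CDC25 phosphatase that starts the activation of CDKs at entry into mitosis. Rfc1 encodes the large subunit of replication factor C, the clamp loader that places the sliding clamp PCNA on DNA for the replicative polymerases. Peroxisome proliferators are known to cause hepatocytes of rats and mice to divide, early in treatment above all, and to cause liver tumours in these species after long dosing.

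DNA near a start of each gene is shown so that common promoter elements can be seen beside the ratios. The windows come from RefSeq tables of the GRCr8 rat assembly, from 250 bases before to 50 bases after 1 start per gene, and all 3 genes were matched. This start is not the first annotated base of the gene. For Cdkn1b and Rfc1 the annotated gene begins further upstream. The Cdkn1b CCAAT box stretch and the Rfc1 stretch therefore lie inside the annotated gene. Capitals mark matches on either strand to the GC box (GGGCGG) and the CCAAT box (CCAAT), none of which overlap in the stretches shown.
Cdkn1b, GC box, chr4:169491318-169491347, plus strand: gctcgccagcctGGGCGGagccgctcccgg
Cdkn1b, CCAAT box, chr4:169491423-169491452, plus strand: cttccaccgccatATTGGgcaactaaaaaa
Cdc25b, upstream of the gene, chr3:138859923-138860147, plus strand: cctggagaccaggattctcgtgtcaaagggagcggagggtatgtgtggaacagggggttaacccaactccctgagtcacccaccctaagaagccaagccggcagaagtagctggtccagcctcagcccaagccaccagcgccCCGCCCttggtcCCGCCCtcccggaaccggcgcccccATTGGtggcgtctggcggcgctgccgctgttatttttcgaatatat
Rfc1, GC box, chr14:43319902-43319931, plus strand: actcccgcctcgGGGCGGggccgcggggag
The GC box occurred 1 time in the Cdkn1b window, 2 times in that of Cdc25b and 1 time in that of Rfc1, against 33.1% of the 33469 windows of all genes holding it. The CCAAT box occurred 2 times in the Cdkn1b window, 1 time in that of Cdc25b and 1 time in that of Rfc1, the last after the start, against 37.5% of all windows. An E-box (CACGTG, in 6.42% of windows) occurred 1 time in the Rfc1 window and in neither other. The E2F motifs TTTCCCGC (0.974% of windows) and TTTGGCGC (0.493%), the cell cycle homology region TTTGAA (18.3%), the cAMP response element TGACGTCA (1.83%) were not found as spelled in the 3 windows. A perfect direct repeat of the PPAR element with a spacer of any base was in 0.0538% of windows and in none of the 3. These matches are letters in a window and do not show binding.

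Cdkn1b, the CDK inhibitor, had by far the largest ratio of the 3, and it was negative. The deposited linear ratios of its spot were 0.444, 0.601, 0.264 and 0.418 on replicates 1 to 4. After centring these were -1.16, -0.76, -1.89 and -1.18 (log2). All 4 arrays lay well below 0, replicate 3 lowest and replicate 2 nearest to it. The mean was -1.25 ± 0.47 (log2, SD, n = 4), a 2.37-fold lower ratio in the treated livers under the likely direction. By this mean Cdkn1b was about 27th from the lowest of 2644 genes, whose means ran between -1.89 and 1.13. Its rank among genes varied by array: it was 14th from the lowest on replicate 3 and 307th on replicate 2. Its SD was also wide, above that of 91.4% of genes. Leaving out 1 array at a time gave means between -1.41 without replicate 2 and -1.03 without replicate 3.

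The Cdkn1b ratio rests on a single spot, in the first row of the block read as the fourth of 8. Of the 3238 listed clones, 1288 were printed as 1 spot only, and the clone could not be compared with a partner. Its block had a median of -0.13, and 25 of the 808 spots measured there on all arrays had a lower mean. With the median of each block subtracted the mean was -1.12 ± 0.44, and after subtraction of a smooth surface fitted over the positions (below, the position surface) it was -1.15 ± 0.48 (SD, n = 4 each). The surface left 92.2% of the ratio, with -1.11, -0.71, -1.82 and -0.96 on replicates 1 to 4. With the surface subtracted every array was thus still negative, replicate 3 lowest and replicate 2 nearest to 0. No other CDK inhibitor among the 8 listed was on the arrays under its symbol, so the family is represented by Cdkn1b alone.

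**Figure D1:**
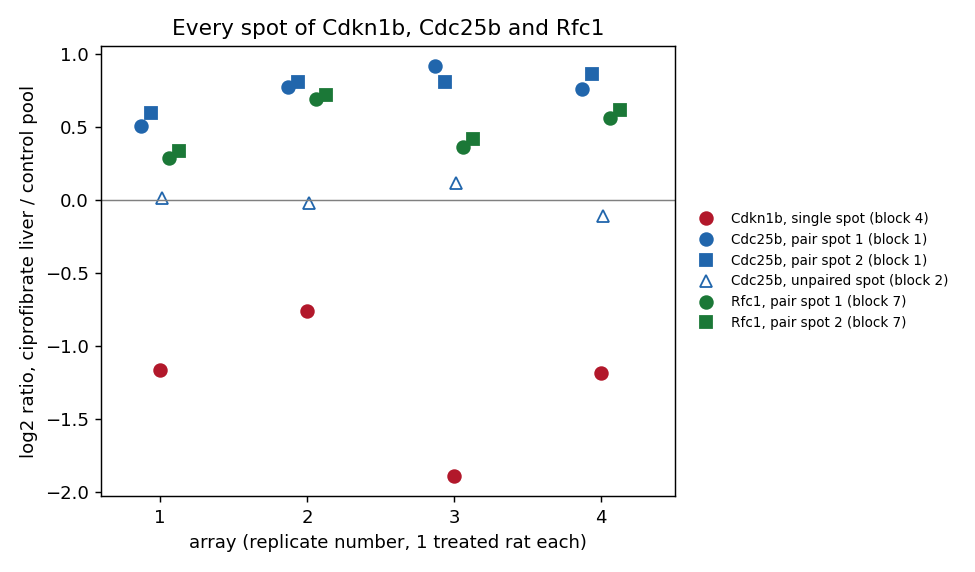
Log2 ratio of ciprofibrate liver over control pool (vertical axis) for each spot of the 3 genes on the 4 arrays (horizontal axis); each point is 1 spot on 1 array. The Cdkn1b spot lies between -1.89 and -0.76, the paired spots of Cdc25b and Rfc1 lie between 0.29 and 0.92, and the unpaired Cdc25b spot lies between -0.11 and 0.12.

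Cdc25b, the phosphatase that activates CDKs, had a positive mean that hides a split between its spots. Its clone was listed at 3 positions, of which a pair lies in the first block and an unpaired spot in the second. One spot of the pair gave 0.51, 0.77, 0.92 and 0.76 (log2) on replicates 1 to 4. The other gave 0.60, 0.81, 0.81 and 0.86. The unpaired spot gave 0.01, -0.02, 0.12 and -0.11. The pair was thus above 0 on each array and the unpaired spot lay around 0 on each. The pair averaged 0.76 ± 0.14 and the unpaired spot 0.00111 ± 0.09 (SD, n = 4 each). The mean over the 3 spots, 0.50 ± 0.10 with 0.37, 0.52, 0.62 and 0.51 on replicates 1 to 4, corresponds to a 1.42-fold higher ratio but to none of the spots.

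This split is wide for spots listed as the same clone. The spot means of the Cdc25b pair differed by 0.03, close to the median gap of 0.05 over 1321 clones printed as 1 pair. Over all 3 spots the gap was 0.77. Of 25 clones with 3 or more measured spots, 3 had a gap at least as large, Cdc25b included, and the median gap was 0.37. Of 14 clones with spots in both columns of blocks, 4 reached it. Clone sequences were not checked, so whether the unpaired spot holds the same cDNA is not known. The pair and the unpaired spot also lie on different sides of the slide. Their distance, pair minus unpaired, was 0.75 after centring, 0.50 with block medians subtracted and 0.35 with the position surface subtracted.

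**Figure D2:**
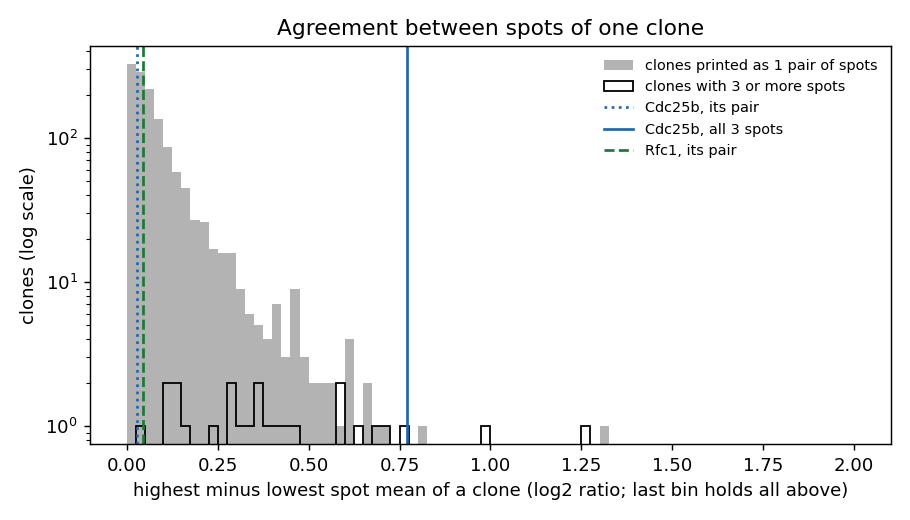
Highest minus lowest spot mean of each clone (log2 ratio, horizontal axis) against the number of clones (vertical log axis), in grey for 1321 clones printed as 1 pair and in outline for 25 clones with 3 or more spots. The pairs of Cdc25b (0.03) and Rfc1 (0.05) lie among the bulk, and the 3 spots of Cdc25b (0.77) lie far to the right.

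Rfc1, the large subunit of the clamp loader, had a positive ratio that its spots shared, smaller than that of the Cdc25b pair. Its clone was printed as a pair in the seventh block. One spot gave 0.29, 0.69, 0.37 and 0.57 (log2) on replicates 1 to 4. The other gave 0.34, 0.72, 0.42 and 0.62. Both were above 0 on each array, with replicate 2 highest and replicate 1 lowest, and their means differed by 0.05. The mean was 0.50 ± 0.18 (SD, n = 4), a 1.42-fold higher ratio in the treated livers. By mean ratio Rfc1 was about 130th and Cdc25b 126th from the highest of 2644 genes. Over all genes, 29.5% were above 0 and 25.7% below 0 on all 4 arrays, so a shared sign alone was common. Leaving out 1 array at a time gave between 0.43 and 0.56 for Rfc1 and between 0.47 and 0.55 for Cdc25b.

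**Figure D3:**
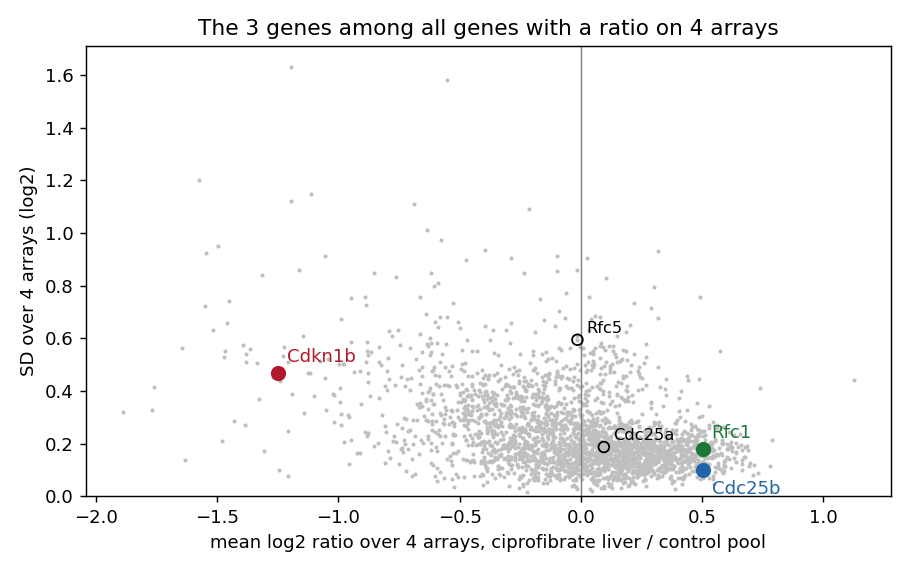
Mean log2 ratio over the 4 arrays (horizontal axis) against its SD (vertical axis), with 1 point per gene and 2644 genes in all. Cdkn1b lies at the far left with a mean of -1.25, Cdc25b and Rfc1 lie at 0.50 near the right edge of the cloud, and their relatives Cdc25a and Rfc5 lie near 0. Values are centred on the array median, without position correction.

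The positive ratios of Cdc25b and Rfc1 moved with the place of their spots. The blocks of the Cdc25b pair and of Rfc1 are in the left column and had medians of 0.23 and 0.15, whereas the block of the unpaired Cdc25b spot had a median of -0.03. Of 784 spots measured on all arrays in the first block, 6 and 3 had a higher mean than the spots of the Cdc25b pair. In the seventh block 55 and 28 of 788 were higher than the spots of Rfc1. In the second block 346 of 761 were higher than the unpaired Cdc25b spot. With block medians subtracted Cdc25b was at 0.37 ± 0.12 and Rfc1 at 0.36 ± 0.20 (log2, SD, n = 4 each). With the position surface subtracted Cdc25b was at 0.25 ± 0.16 and Rfc1 at 0.24 ± 0.19, 50.3% and 47.5% of their centred means. The Cdc25b pair alone was at 0.37 ± 0.23 on that scale (SD, n = 4). Replicate 2 was the highest array for both genes after this step. On the surface-corrected scale Cdc25b gave 0.19, 0.49, 0.19 and 0.15 on replicates 1 to 4. Rfc1 gave 0.12, 0.52, 0.17 and 0.15 there. Without replicate 2 the corrected means were 0.18 ± 0.02 for Cdc25b and 0.15 ± 0.02 for Rfc1 (SD, n = 3 each), still above 0 on each array. For Cdkn1b the same setting gave -1.30 ± 0.46. A surface of this kind also takes out any true ratio that neighbouring clones share.

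**Figure D4:**
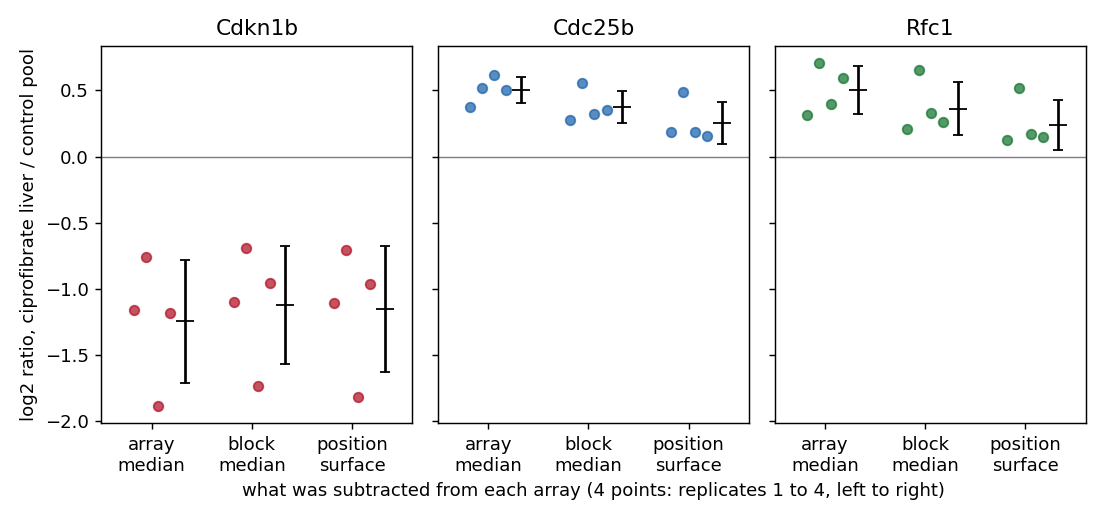
Log2 ratio of ciprofibrate liver over control pool (vertical axis) for each gene after subtraction of the array median, the block median or the position surface (horizontal axis), with 1 point per array and the mean ± SD in black. Cdkn1b stays between -1.25 and -1.12 on average, while Cdc25b goes down to 0.25 and Rfc1 to 0.24 with the surface, each with replicate 2 above the other arrays.

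Between the genes, Cdkn1b minus Cdc25b was -1.75 ± 0.53 and Cdkn1b minus Rfc1 -1.75 ± 0.38 (log2, mean and SD of the difference within arrays, n = 4). On the arrays where they came closest these differences were -1.28 and -1.47. Cdc25b, as the mean over its 3 spots, and Rfc1 did not differ beyond their spread, at 0.0019 ± 0.18 for Cdc25b minus Rfc1. The Rfc1 mean of 0.50 lay between the Cdc25b pair at 0.76 and the unpaired Cdc25b spot at 0.00111. The distances between the genes follow from their choice and carry no test.

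After centring, the closest relatives of Cdc25b and Rfc1 on the arrays lay near 0 on average. Cdc25a, the CDC25 phosphatase of entry into DNA synthesis, gave 0.03, 0.37, 0.01 and -0.03 (log2) on replicates 1 to 4. Only replicate 2 stood clear of 0. Its mean of 0.09 ± 0.19 (SD, n = 4) did not pass (limma adjusted p = 0.511). With block medians subtracted Cdc25a was at 0.22 (adjusted p = 0.0970), against 0.37 for Cdc25b. With the position surface subtracted it was at 0.14 (adjusted p = 0.285), against 0.25 for Cdc25b. The distance between the 2 phosphatases was thus smaller after either position correction. Rfc5, a small subunit of the same clamp loader as Rfc1, gave 0.31, -0.90, 0.23 and 0.31. Replicate 2 alone was negative, on both spots of the clone. The Rfc5 mean was -0.01 ± 0.59 (limma adjusted p = 0.964), and without replicate 2 it was 0.28, a positive call (limma adjusted p = 0.0296). Both Rfc5 spots lie in the left column of blocks. Over all 4 arrays Rfc5 was at -0.23 with block medians subtracted (adjusted p = 0.408). With the position surface subtracted it was at -0.29 (adjusted p = 0.280). Pcna, the clamp that the loader places on DNA, had 2 spots and no measured ratio on the 4 arrays. Of the 3 CDC25 genes listed 2 were on the arrays, and of 5 RFC subunits and Pcna 3 were.

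Around these genes, calls among cell cycle genes went both ways. Of 200 other genes in lists of cyclins and CDKs, CDC25 and checkpoint, replication, mitosis, RB and E2F, and p27 turnover, 40 had a ratio on all 4 arrays. Of the 40, 3 passed as positive (7.5%, against 17.1% of all 2644 genes) and 9 as negative (22.5%, against 16.6% of all genes), and 28 did not pass. Their median ratio was -0.15 against 0.01 over all genes, and it was lowest on replicate 2 at -0.25. With the position surface subtracted 1 was a positive call (4.2% of all genes) and 7 were negative (13.5% of all genes). Among these were 6 of the 9 genes called negative before and 0 of the 3 called positive. The remaining ones were the positive Ywhab, a 14-3-3 protein, at 0.29 (limma adjusted p = 0.0339) and the negative Cdc23, a subunit of the anaphase-promoting complex, at -0.38 (adjusted p = 0.0172), both named after their values were seen. Leaving out 1 array at a time gave 2 to 7 positive calls, the most without replicate 2, and 5 to 10 negative ones, the fewest without replicate 1 or 3.

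Among the CDK partners, 1 of 10 measured genes of the cyclin and CDK list was a positive and 2 were negative calls, and 7 did not pass. Over all genes 17.1% were positive and 16.6% negative calls. Ccnb1, the B-type cyclin that drives mitosis with Cdk1, gave 0.32, 0.31, 0.53 and 0.56 (log2) on replicates 1 to 4, with a mean of 0.43 ± 0.13 (SD, n = 4, limma adjusted p = 0.0150). It was above 0 on each array, yet subtracting the surface left 0.10 (adjusted p = 0.298). The call also ended without replicate 3 or 4 (adjusted p = 0.0860 and 0.0693). Ccnf, the F-box protein cyclin F, gave -0.49, -0.44, -0.68 and -1.57. Replicate 4 was far below the others, and the mean was -0.79 ± 0.52 (adjusted p = 0.0155), or -0.59 with the surface subtracted (adjusted p = 0.0558). Mnat1, the assembly factor of the CDK-activating kinase, was at -0.46 ± 0.29 (adjusted p = 0.0260), and its call ended with the surface subtracted and without replicate 1, 3 or 4. Of the D cyclins that p27 binds with their kinases, named after their values were seen, Ccnd1 was at -0.29 ± 0.58, Ccnd2 at 0.06 ± 0.05 and Ccnd3 at -0.19 ± 0.48, and none passed (limma adjusted p = 0.282, 0.634 and 0.414).

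Of the 8 measured genes of CDC25 control and the DNA damage checkpoint, 1 was a negative call (against 16.6% of all genes) and 7 did not pass. It was Ywhaq, a 14-3-3 protein of the family that binds phosphorylated CDC25 and holds it in the cytoplasm. Ywhaq gave -0.47, -0.69, -0.38 and -0.60 (log2) on replicates 1 to 4, with a mean of -0.53 ± 0.13 (SD, n = 4, limma adjusted p = 0.00779). All arrays were below 0, and the call held with the surface subtracted at -0.47 (adjusted p = 0.0184) and without any 1 array. Of the 2 measured replication genes other than Rfc1, neither passed: Orc2, a subunit of the origin recognition complex, was at -0.16 ± 0.22 (adjusted p = 0.287), and Rfc5 is given above. Of 10 genes of mitosis and the anaphase-promoting complex, 1 was a negative call (against 16.6% of all genes) and 9 did not pass. This was Cdc16, a subunit of that complex, at -0.30 ± 0.09 (adjusted p = 0.0397). Its 2 clones were at -0.39 and -0.21 and had opposite signs on replicate 2, and its call ended with the surface subtracted and without replicate 1, 3 or 4.

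The RB and E2F list and the list of p27 turnover together held 5 of the 9 negative calls, and also the positive calls Mxi1 and Nup50. These lists are put together here with their calls known. Each list had only 5 measured genes, and no test of a list was made. Of 5 measured genes of the RB and E2F list, which also holds MYC and immediate early factors, 1 was a positive and 3 were negative calls. Over all genes the shares were 17.1% and 16.6%. Mycn, a MYC family transcription factor that promotes growth, gave -1.49, -0.88, -1.23 and -1.23 (log2) on replicates 1 to 4. Its mean of -1.21 ± 0.25 (SD, n = 4, limma adjusted p = 0.00131) was close in size to that of Cdkn1b, and it was at -1.52 with the surface subtracted (adjusted p = 0.00436). Tfdp1, the partner with which E2F factors bind DNA, gave -0.65, -1.16, -0.66 and -0.56, with a mean of -0.76 ± 0.27 (adjusted p = 0.00538), or -0.48 with the surface subtracted (adjusted p = 0.0214). Fosl1, a FOS family factor that was named after its values were seen because it completes the 3, was at -0.38 ± 0.28 (adjusted p = 0.0454), or -0.66 with the surface subtracted (adjusted p = 0.00931). Its replicate 4 was at 0.02, and its call ended without replicate 1, 2 or 3 (adjusted p = 0.169, 0.0699 and 0.152). Mxi1, which opposes MYC by competing for its partner Max, gave 0.37, 0.71, 0.77 and 0.79. Its mean was 0.66 ± 0.19 (adjusted p = 0.00538), and with the surface subtracted 0.29 (adjusted p = 0.0662).

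Of 5 measured genes that phosphorylate, degrade or transport p27, 1 was a positive and 2 were negative calls, against 17.1% and 16.6% of all genes. Akt2 and Akt1 encode kinases of insulin and growth factor signalling; Akt is known to phosphorylate human p27 and the FOXO factors that transcribe it. Akt2 gave -0.82, -0.90, -1.10 and -0.998 (log2) on replicates 1 to 4, with a mean of -0.95 ± 0.12 (SD, n = 4, limma adjusted p = 0.00170), or -0.80 with the surface subtracted (adjusted p = 0.00322). Its 2 clones did not match in size, at -1.56 ± 0.25 and -0.35 ± 0.29. Akt1 gave -0.63, -1.004, -0.52 and -0.11, with a mean of -0.57 ± 0.37 (adjusted p = 0.0203), or -0.79 with the surface subtracted (adjusted p = 0.00750), and its call ended without replicate 1 or 3 (adjusted p = 0.0818 and 0.0591). Nup50, a nuclear pore protein that binds p27, gave 0.34, 0.71, 0.67 and 0.72. Its mean of 0.61 ± 0.18 (adjusted p = 0.00637) was 0.24 with the surface subtracted (adjusted p = 0.109). Skp1, a subunit of the ubiquitin ligase that marks p27 for degradation and named after its values were seen, was at -0.44 ± 0.40 and missed the threshold (adjusted p = 0.0551).

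**Figure D5:**
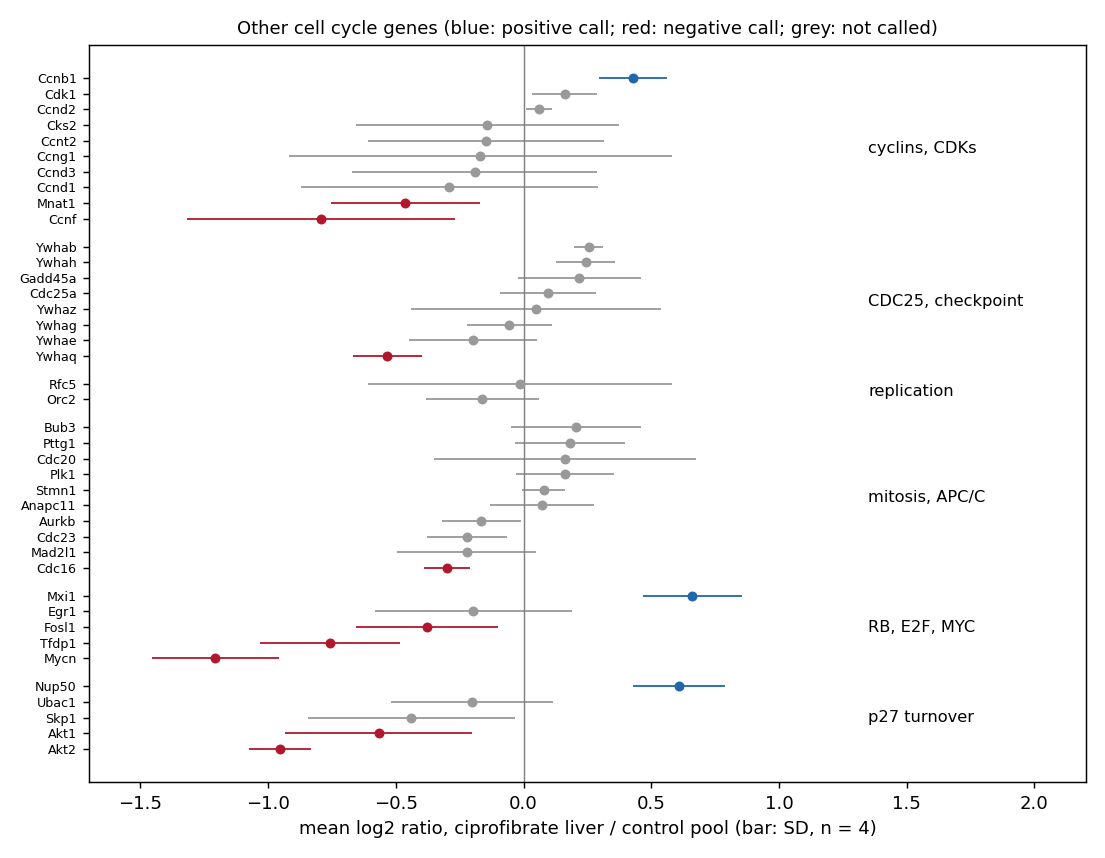
Mean log2 ratio of ciprofibrate liver over control pool (horizontal axis) for the 40 other cell cycle genes, grouped by list; points are means and bars the SD over 4 arrays, blue for positive, red for negative and grey for no call. The 9 negative calls run down to -1.21 for Mycn, and the 3 positive ones are Ccnb1, Mxi1 and Nup50.

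The genes whose values over the 4 arrays were most like those of each of the 3 were found by the root mean square difference of their log2 ratios. For Rfc1 these were Sptan1, a spectrin of the membrane skeleton, at a difference of 0.011, Cds1, an enzyme of phospholipid synthesis, at 0.037, and Psmb4, a proteasome subunit, at 0.039, against a median of 0.57 over all other genes. Each of them lies in the seventh block, as Rfc1 does. For Cdc25b they were Grik2, a glutamate receptor subunit, at 0.023, Fdx1, a ferredoxin of steroid synthesis, at 0.037, and Rps23, a ribosomal protein, at 0.043, against a median of 0.56. Grik2 and Fdx1 lie in the first block, as the Cdc25b pair does, and Rps23 in the third, which is also in the left column. The comparison used the Cdc25b mean over its 3 spots. The pair alone averaged 0.76, above Grik2 at 0.52 and Fdx1 at 0.47. With the surface subtracted these 6 genes were at 0.11 to 0.28. For Cdkn1b the closest were Fndc1 at 0.23, Arrdc2 at 0.29 and Exosc9 at 0.30, against a median of 1.34. These lie in blocks 6, 8 and 7, none of them the block of Cdkn1b, and each rests on 1 spot. They were at -0.73, -0.71 and -1.10 with the surface subtracted. With 4 arrays such likeness is a description only.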

How the data were processed

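Each of 4 arrays set liver RNA of a ciprofibrate-treated rat against the control pool, per the labels. The authors deposited 1 value per spot, read from the values as log10 of a ratio: 10 to its power, in thousandths, was whole within 0.02 for 99.99% or more of spots. How the slides were scanned, filtered and normalized is not given in the sources used here, and without intensities the precision is limited by the number of arrays. The most repeated value of each array (1171 to 1189 spots) was set to missing. Values were converted to log2, spots of a listed clone averaged (5674 rows, unlisted spots included), arrays centred on their median, and clones of a gene averaged. Symbols came from GEO's platform annotation, updated by Entrez number to GRCr8 for 5140 spots, with 29 kept, 83 with several symbols unused and 2436 unlisted.

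The mean of each gene with 4 values was set against 0 by limma 3.58.1 (lmFit, eBayes; R 4.3.3), two-sided, with Benjamini-Hochberg adjustment. The smallest p of an exact sign-flip test here is 0.125. The test was tried on simulated data of independent genes without an effect of slide position. That trial therefore does not bear on calls that moved with position. The slide layout (8 blocks of 31 by 31 spots, 2 columns by 4 rows) is inferred; the surface was a robust loess (span 0.05, degree 1, 4 iterations). Named were the relatives of the 3 genes, the 3 genes most like each, and from each list the 2 calls of each sign with the smallest p, or the 2 smallest p where none was called. The genes, lists, layout and alternatives were chosen with earlier results of these data known. Alternatives were no centring, quantile normalization, both position corrections, values on 3 arrays, leaving out each array, weighting arrays, a robust prior, clone rows and the repeated value kept. Arrays were not shown to come from separate rats, so p-values may measure technical spread.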

Additional observations from a re-analysis of the deposited data

Results flagged for a closer look

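Of the 26 genes named by the rule given above, 3 had 1 array standing apart from the other 3. The measure was the gap to the nearest array as a share of the whole range. Such a flag arises by chance in about 5% of groups of 4. Genes named after their values were seen were not examined in this way. For Rfc5 the share was 0.933, with replicate 2 at -0.90 against 0.23 to 0.31 on the others (log2). For Nup50 it was 0.872, with replicate 1 at 0.34 against 0.67 to 0.72. For Cdc25a it was 0.840, with replicate 2 at 0.37 against -0.03 to 0.03. Cdkn1b, Cdc25b and Rfc1 were not among them.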

How the results depend on the processing

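The mean of Cdkn1b stayed negative and those of Cdc25b and Rfc1 positive without centring, with quantile normalization and with array weights. The signs also held with both position corrections and without each array. Allowing values on 3 arrays could not change these means, since the 3 genes had a ratio on all 4 arrays. Under the other settings their means were not recomputed. Means moved by more than their SD with the position surface subtracted (Cdc25b 0.25, Rfc1 0.24; with replicate 2 also left out 0.18 and 0.15), with block medians subtracted (Cdc25b 0.37) and, chosen after seeing the data, from the Cdc25b pair alone (0.76). The 452 positive and 440 negative genes became 111 positive ones with the surface subtracted (357 negative), 719 and 682 with array weights, 736 and 677 with the repeated value kept, and 638 and 706 with clones as rows, where 4704 were tested. With 1 array left out the counts ran from 118 to 565 positive and 211 to 528 negative, lowest without replicate 3 and highest without replicate 2. Without centring they were 381 and 476, so that the positive share changed. The 3 positive cell cycle calls became 5 with quantile normalization or block medians, 1 with the surface, 8 with array weights and 6 with the repeated value kept. With 1 array left out they ran from 2 to 7, and the 9 negative ones from 5 to 10. Rfc5, at -0.01, changed sign with quantile normalization (0.053) and array weights (0.21), and with 1 array left out ran from -0.12 to 0.28. With the surface subtracted it was at -0.29 and with block medians subtracted at -0.23. Of 20 other genes that were named by the rule and called, 12 ended with the surface and 5 with block medians. Without replicates 1 to 4, 3, 0, 6 and 3 of them ended. Causes were not tested. No paired analysis was possible because the arrays form 1 group. The table holds no intensities, so how far signal over background limits each ratio is unknown.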
